A study of Mus musculus with 12 samples.

Results

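The genes described here are the glutathione peroxidases Gpx1, Gpx2, Gpx3, Gpx4, Gpx7 and Gpx8 together with 4 antioxidant genes, Gsr, Gclm, Gclc and Nqo1, 10 of the 24421 genes in the count table. Gpx2 was chosen on its values, because it was among the largest falls from 0 to 100 nM dTAG13 in these libraries, and the other 9 were listed by name as its paralogs and as targets of the NRF2 type. The levels of Gpx2 against 0 nM are therefore given as a description with no test. Its change between treated doses leaves the 0 and 100 nM libraries out of the contrast. Those libraries still enter the shared fit, and the members and tests were chosen with earlier results of these data known. The data were RNA-seq counts from mouse embryonic stem cells of strain B6 (C57BL/6J), grown in 2i+LIF medium, in which both the untreated and the treated cells carried a dTag knock-in at Brg1 (Smarca4), the gene of the ATPase of the mSWI/SNF chromatin remodeling complexes. dTAG13 is a small molecule that bridges the tagged protein to an E3 ubiquitin ligase and so leads to its degradation. Cells received 0, 0.3, 1, 3, 10 or 100 nM dTAG13 for 24 h, with 2 libraries per dose and 12 in all. The cell line was established from picked single-cell colonies, the number of clones behind these libraries is not given in the sources used here, and the shared medium held the reducing agent 2-mercaptoethanol.

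Glutathione peroxidases reduce hydrogen peroxide and organic hydroperoxides with electrons from glutathione, which is made by glutamate-cysteine ligase and glutathione synthetase and regenerated by glutathione reductase. Many of the genes of this system hold antioxidant response elements, DNA sites bound by the transcription factor NRF2 (Nfe2l2), which is held in check by KEAP1 and competes with the repressor BACH1. Gpx2 is best known from the epithelium of the gut, Gpx1 is the widespread cytosolic enzyme and Gpx4 reduces phospholipid hydroperoxides and protects cells from ferroptosis.

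The 6 glutathione peroxidases differ in the codon of the catalytic residue, which is shown because it separates the paralogs whose levels are compared. In 4 of them this codon is TGA, annotated as selenocysteine in GENCODE, and in Gpx7 and Gpx8 it is a cysteine codon. The lines give 27 coding bases each, from transcripts on GRCm38 (mm10), with the codon in capitals.
Gpx1, chr9:108339439-108339465, plus strand: gtcgcgtctctcTGAggcaccacgatc
Gpx2, chr12:76795244-76795270, minus strand: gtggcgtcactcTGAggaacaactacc
Gpx3, chr11:54907244-54907270, plus strand: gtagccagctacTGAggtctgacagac
Gpx4, chr10:80054725-80054751, plus strand: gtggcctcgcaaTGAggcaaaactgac
Gpx7, chr4:108403418-108403444, minus strand: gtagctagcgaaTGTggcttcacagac
Gpx8, chr13:113045649-113045675, minus strand: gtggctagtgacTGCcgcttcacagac

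Total counts per library ranged from 4663484 to 6375582, and the repetitive ribosomal RNA gene Rn45s took 10.5% to 19.4% of them. Of the 23204 genes with a count, 11378 had a mean of at least 1 RPKM (counts per kilobase of exon, scaled to the counts of the tested genes in each library) over the 12 libraries and were tested, all 10 members among them. Markers that define embryonic stem cells were high in untreated cells, with 573 RPKM for Pou5f1, 229 RPKM for Nanog and 62.8 RPKM for Sox2. Smarca4 RNA measured 63.9 ± 0.503 RPKM without dTAG13 and 71.3 ± 0.0942 RPKM with the highest dose (SD, n = 2 per dose), which does not check the treatment, since dTAG13 acts on the protein. The library labels end in numbers after an S, which form 1 series for 0, 1, 10 and 100 nM and another for 0.3 and 3 nM. What these numbers mark is not stated. Comparisons of 0.3 or 3 nM with 0 nM cross the 2 series, so dose and series cannot be told apart there. The steps from 0.3 to 3 nM and from 1 to 10 nM each stay within 1 series.

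At 0 nM the members spanned a range of levels per length from 295 ± 9.45 RPKM for Gpx1 to 1.64 ± 0.170 RPKM for Gpx8. Gpx4 came second at 176 ± 10.96 RPKM, before Gsr at 103 ± 1.53 RPKM, Nqo1 at 39.1 ± 4.15 RPKM and Gclm at 20.9 ± 0.689 RPKM. Gclc and Gpx2 could not be put in order, at 12.6 ± 0.314 and 12.6 ± 1.40 RPKM with overlapping libraries. Gpx7 followed at 7.20 ± 1.19 RPKM and Gpx3 at 2.70 ± 0.131 RPKM (SD, n = 2 for every mean).

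**Figure D1:**
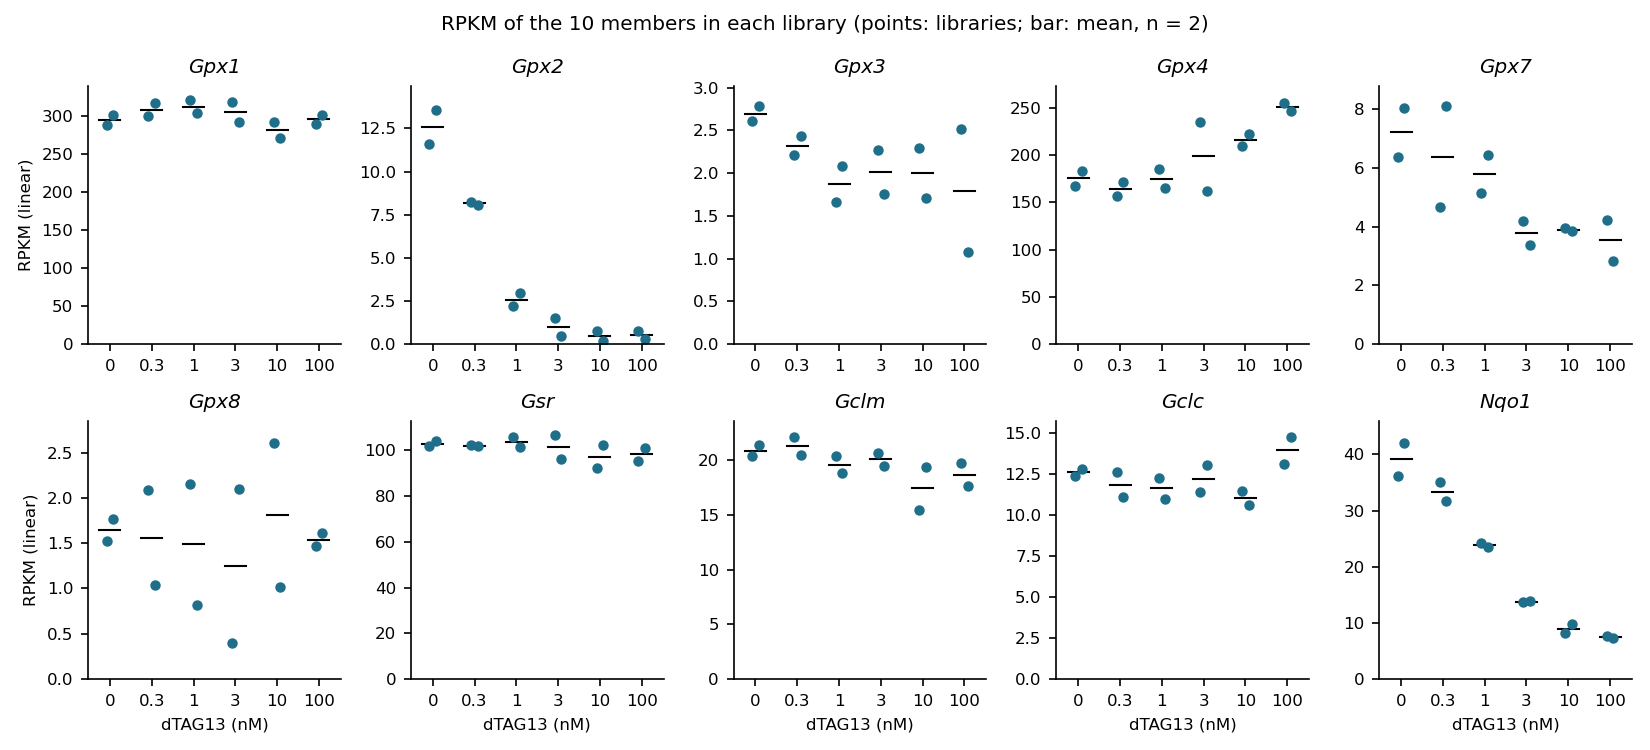
RPKM of each member in each library (points, 2 per dose) with the mean (bar), on linear axes from 0, against the dTAG13 dose in nM. Gpx2 and Nqo1 are lower at each dose from 1 nM than at 0 nM in both libraries, Gpx4 stands highest at 100 nM, and Gpx1, Gsr, Gclm and Gclc stay near their 0 nM levels.

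Gpx2 was lower at every dose than at 0 nM, and most of the difference was already reached at 1 nM. The gene lies at chr12:76792335-76795554 of mm10 on the minus strand, with 1067 exonic bases in the count table. Untreated libraries held 72 and 89 counts of Gpx2, which became 50 and 49 under 0.3 nM, 14 and 19 under 1 nM, 8 and 3 under 3 nM, 5 and 1 under 10 nM, and 5 and 2 under 100 nM. Neither library at 0.3 nM nor at any higher dose reached the lower of the 0 nM libraries, and the libraries of 3, 10 and 100 nM overlapped. With 2 libraries per dose such separation is common. Of all tested genes, 19.7% at 0.3 nM and 31.2% at 100 nM had both libraries below both at 0 nM. Per length, the mean RPKM was 12.6 ± 1.40 without dTAG13, 8.16 ± 0.144 with 0.3 nM, 2.59 ± 0.535 with 1 nM, 1.01 ± 0.722 with 3 nM, 0.468 ± 0.433 with 10 nM and 0.541 ± 0.332 with 100 nM (SD, n = 2 libraries). By the summed counts Gpx2 kept 64.7% of its 0 nM level at 0.3 nM, with a 95% exact binomial interval of 49.9% to 83.7%, 20.5% at 1 nM (13.7% to 30.0%) and 7.75% at 3 nM (3.79% to 14.2%). At 10 nM it kept 3.77% (1.36% to 8.38%) and at 100 nM 4.28% (1.69% to 9.02%), and the difference between these doses was not detectable at this depth. These intervals cover counting error only. In bulk libraries fewer cells that express a gene and less RNA per cell cannot be told apart, which applies to every member.

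Among the 777 genes called lower at 100 nM, Gpx2 had the 3rd largest fitted difference, at -4.49 on the log2 scale with a standard error of 0.44. Next above it were Emp1 (-5.28), an epithelial membrane protein gene, and Optn (-4.56), an autophagy receptor gene, and next below it Ildr1 (-4.06) and the transcription factor gene Klf15 (-3.99). This place is what the gene was chosen for and is given without a test.

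Between treated doses, where neither the 0 nM nor the 100 nM libraries enter the contrast, Gpx2 fell in both steps tested. From 0.3 to 3 nM its log2 fold change was -3.03 (standard error 0.44, 95% interval -3.93 to -2.13, adjusted p = 7.37e-05 by edgeR), and every alternative that gave a value kept it past the threshold. From 1 to 10 nM it was -2.40 (standard error 0.61, 95% interval -3.65 to -1.15, adjusted p = 0.0156), from 33 counts at 1 nM to 6 at 10 nM over both libraries. The second step rests on few counts, and its call was lost without 1 nM replicate 2 (adjusted p = 0.135), without 10 nM replicate 2 (adjusted p = 0.201) and in a fit of these 4 libraries alone (adjusted p = 0.0561).

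**Figure D2:**
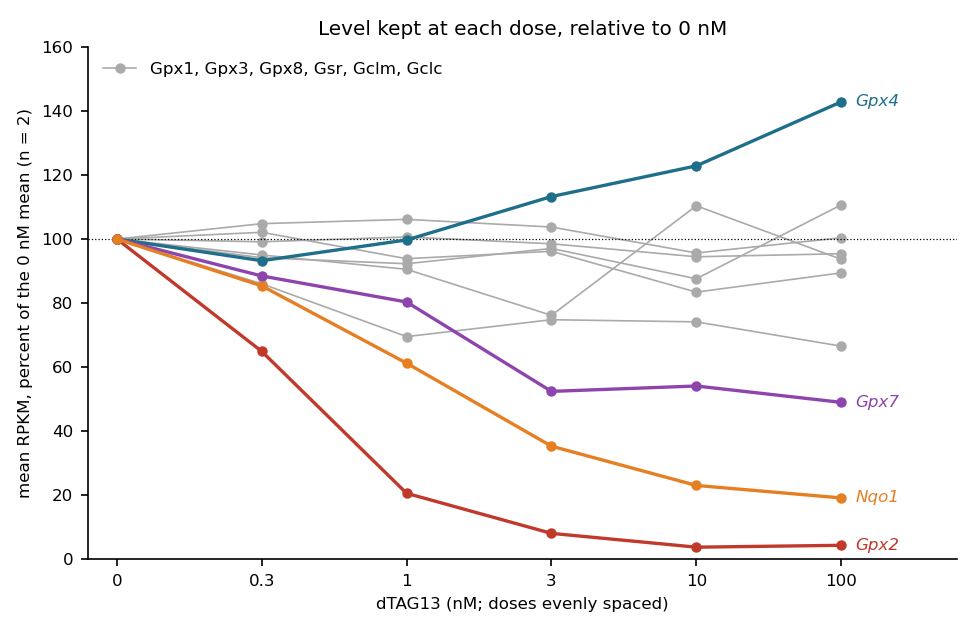
Mean RPKM of each member as a percent of its 0 nM mean (n = 2 libraries per dose) against the dTAG13 dose in nM, with doses evenly spaced. Gpx2 is at 20.6% and Nqo1 at 61.2% at 1 nM, Gpx7 is between 49.0% and 54.1% from 3 nM, Gpx4 reaches 143% at 100 nM, and the 6 members in gray stay between 66.5% and 111%.

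Gpx4 and Gpx7 were the paralogs of Gpx2 that passed the test at 100 nM, in opposite directions. Gpx4 (chr10:80047166-80056439, plus strand) stood at 168 and 183 RPKM at 0 nM and at 255 and 247 RPKM at 100 nM. It rose by 0.51 on the log2 scale (standard error 0.10, adjusted p = 0.000384), or 1.43-fold, under the 1.5-fold minimum for a call. At 10 nM, with 209 and 222 RPKM, it was higher by 0.30 (standard error 0.10, adjusted p = 0.0425), which missed the threshold under 13 alternative settings. The 3 nM libraries disagreed on Gpx4, at 236 RPKM in replicate 1, whose Rn45s share was 10.5%, and 162 RPKM in replicate 2, whose Rn45s share was 19.0%. The part of that share in the Gpx4 level at 3 nM was not tested. Without 3 nM replicate 2 the difference of Gpx4 from 0 nM was 0.42 on the log2 scale, and without 3 nM replicate 1 it was -0.11. From 0.3 to 3 nM the log2 fold change of Gpx4 was 0.28 (adjusted p = 0.123) and from 1 to 10 nM 0.30 (adjusted p = 0.0804).

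Gpx7, an endoplasmic reticulum enzyme with a cysteine in place of selenocysteine (chr4:108400217-108406713, minus strand), had 45 and 60 counts in untreated libraries, against 31 and 21 under 100 nM. In RPKM these were 6.37 and 8.04 against 4.23 and 2.83, which did not overlap, as for 31.2% of all tested genes on the lower side. Gpx7 fell by 1.03 on the log2 scale (standard error 0.30, adjusted p = 0.0141), and with 10 nM it fell by 0.89 (standard error 0.30, adjusted p = 0.0401). The log2 difference with 3 nM was -0.94 (adjusted p = 0.0553), which missed the threshold but passed it under 5 alternatives, the likelihood ratio test (adjusted p = 0.0264) among them. The call at 100 nM rests on particular libraries and was lost without 0 nM replicate 2 (adjusted p = 0.14), without 100 nM replicate 2 (adjusted p = 0.172) and by DESeq2 (adjusted p = 0.0548). The call at 10 nM was lost under 6 alternatives, which were DESeq2 (adjusted p = 0.135), no normalization factors (adjusted p = 0.0629) and leaving out any of the 0 or 10 nM libraries (adjusted p from 0.0554 to 0.257). Between treated doses the log2 fold change of Gpx7 was -0.76 from 0.3 to 3 nM (adjusted p = 0.183) and -0.57 from 1 to 10 nM (adjusted p = 0.342).

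The remaining paralogs did not pass the test at any dose. Gpx1, the most abundant (chr9:108339080-108340344, plus strand), ranged from 282 ± 15.4 RPKM (10 nM) to 313 ± 11.8 RPKM (1 nM) in its dose means, and its log2 fold change at 100 nM was 0.01, with a 95% interval from -0.12 to 0.13. Gpx3, the secreted enzyme of blood plasma, had 10 to 26 counts per library and a log2 fold change of -0.59 at 100 nM, with a 95% interval from -1.39 to 0.21. Its libraries at 100 nM, 2.51 and 1.08 RPKM, differed from each other by more than the means at 0 and 100 nM. Gpx8, the other endoplasmic reticulum paralog, had 2 to 16 counts per library, and its interval at 100 nM, from -1.38 to 1.19, spans differences that were not detectable at this depth. Gpx5 and Gpx6, paralogs outside the members, had 0 to 4 counts in any library and were not tested.

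The summed glutathione peroxidase RNA was made up mostly of Gpx1 and Gpx4. Gpx1 made up 59.6% ± 0.898 of the summed RPKM of the 6 paralogs at 0 nM and 53.4% ± 1.48 at 100 nM, while Gpx4 made up 35.5% ± 0.542 and 45.3% ± 1.08 (SD, n = 2 each). Gpx2 went from 2.54% ± 0.164 to 0.0977% ± 0.0599. Untreated cells had a summed level of 494 ± 23.3 RPKM and cells given 100 nM one of 554 ± 0.356 RPKM. The shares add up to a whole and are given as a description.

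Nqo1, the NAD(P)H quinone oxidoreductase gene widely used as a readout of NRF2 activity, fell at every dose from 1 nM. It lies at chr8:107388225-107403205 on the minus strand. Untreated libraries had 36.2 and 42.04 RPKM of Nqo1, against 35.0 and 31.8 under 0.3 nM, 24.3 and 23.6 under 1 nM, 13.7 and 13.9 under 3 nM, 8.20 and 9.80 under 10 nM, and 7.68 and 7.27 under 100 nM. No library of one dose overlapped those of the next, which 69 to 401 counts per library resolve better than those of Gpx2. The share of all genes separated in this way between successive doses is not given here, and against 0 nM such separation is common, as stated for Gpx2. Against untreated cells the log2 difference of Nqo1 was -0.23 with 0.3 nM (adjusted p = 0.639), which missed the threshold. It was -0.71 with 1 nM (standard error 0.11, adjusted p = 0.000454) and -1.503 with 3 nM (standard error 0.12, adjusted p = 6.3e-09). With 10 nM it reached -2.12 (standard error 0.13, adjusted p = 1.01e-11) and with 100 nM -2.39 (standard error 0.13, adjusted p = 4.84e-13). It also fell from 0.3 to 3 nM by 1.27 on the log2 scale (standard error 0.13, adjusted p = 4.05e-07) and from 1 to 10 nM by 1.41 (standard error 0.14, adjusted p = 1.58e-07). At 100 nM Nqo1 kept 19.1% of its summed counts at 0 nM, with a 95% counting interval from 15.8% to 22.9%. Every alternative that gave a value kept Nqo1 past the threshold from 1 nM on.

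Gclc, Gclm and Gsr, members that act in glutathione synthesis and reduction, did not pass the test at any dose. Gclc, the catalytic subunit of glutamate-cysteine ligase, measured 12.6 ± 0.314 RPKM untreated and 13.9 ± 1.198 RPKM under 100 nM, and Gclm, its modifier subunit, 20.9 ± 0.689 and 18.7 ± 1.52 RPKM. Their log2 fold changes at 100 nM were 0.15 (95% interval -0.08 to 0.37) and -0.16 (-0.40 to 0.08). Gsr, glutathione reductase, stood at 103 ± 1.53 and 98.2 ± 3.95 RPKM, with a log2 fold change of -0.07 (-0.20 to 0.07). With at least 426 counts per dose for each of Gclc, Gclm and Gsr, these intervals exclude a 1.5-fold change in either direction. Gclm at 10 nM differed by -0.26 on the log2 scale (adjusted p = 0.129) and passed only when 10 nM replicate 2 was left out (-0.43, adjusted p = 0.0362).

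**Figure D3:**
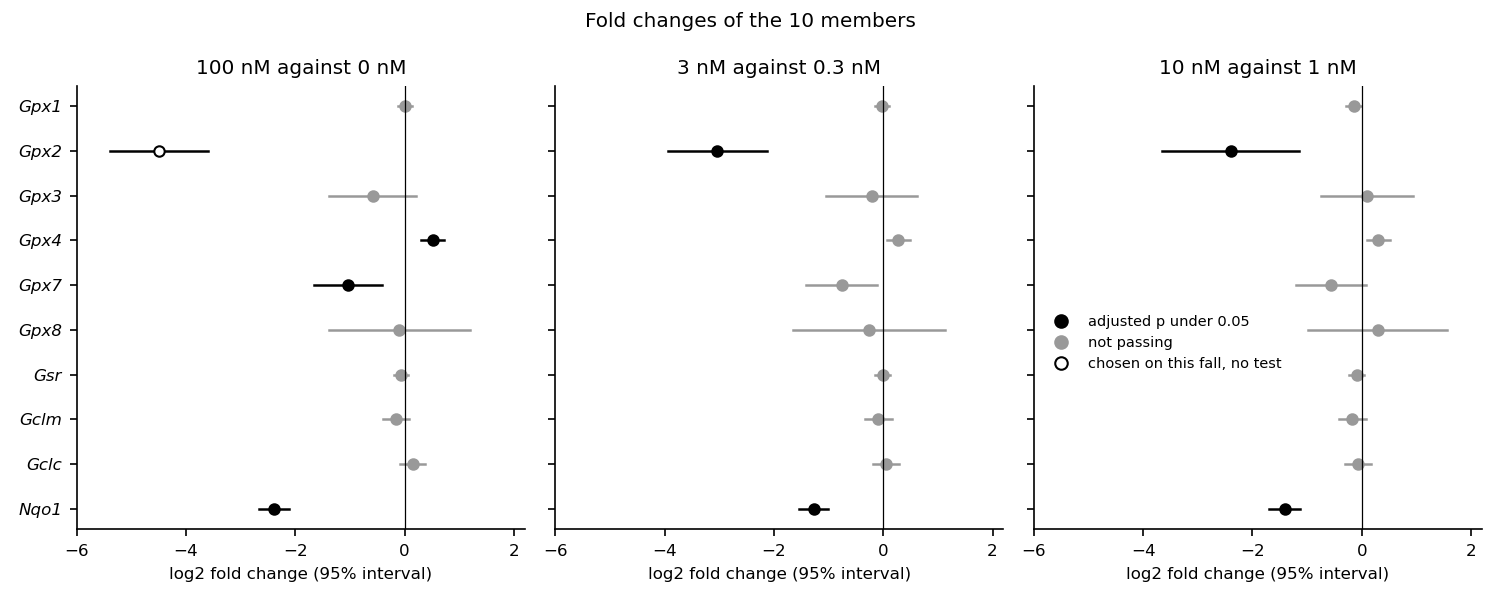
Log2 fold change (point) and 95% interval (line) of each member at 100 nM against 0 nM, 3 against 0.3 nM and 10 against 1 nM, from the fit over 12 libraries. Black marks adjusted p under 0.05, gray the rest, and the open point is Gpx2 in the contrast on which it was chosen. Gpx2 and Nqo1 lie left of 0 in every panel, Gpx7 only at 100 nM with adjusted p under the threshold, and Gpx4 to the right.

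Counted over the list, a call needed an adjusted p under 0.05 and more than a 1.5-fold change. At 100 nM, 3 of 10 members were called lower (Gpx2, Nqo1 and Gpx7) and none higher, beside 6.83% of all tested genes lower and 4.37% higher. Gpx2 was chosen against the 0 nM libraries, which all doses share, so nothing is read from its place in the counts against 0 nM. Without the fold minimum 3 members were lower and 1, Gpx4, was higher, beside 13.3% and 10.1% of all genes. At 10 nM the same 3 were called lower (background 4.92%) and none higher (3.01%), with Gpx7 no longer among them under the 6 alternatives named above. The members called lower were at 3 nM Gpx2 and Nqo1 (2.38% lower, 1.52% higher) and at 1 nM Gpx2 and Nqo1 (0.729% lower, 0.185% higher). At 0.3 nM edgeR called no member, beside 0.0176% lower and 0% higher over all genes, and of the 9 members other than Gpx2 only Nqo1 had an unadjusted p under 0.05 in edgeR, on the lower side, beside 4.38% of all genes. DESeq2 also called none, but gave no adjusted p for 5 of the members at this dose, Gpx2, Gpx3, Gpx7, Gpx8 and Nqo1. From 0.3 to 3 nM Gpx2 and Nqo1 were called lower, beside 1.2% of genes lower and 0.747% higher, and from 1 to 10 nM the same 2 members, beside 1.73% lower and 0.809% higher. No member was called higher in these contrasts by edgeR, nor by DESeq2 where it gave an adjusted p. In edgeR, Gpx4 alone had an unadjusted p under 0.05 on the higher side, at 10 nM (13.7% of all genes), at 100 nM (15.9%), from 0.3 to 3 nM (8.8%) and from 1 to 10 nM (8.5%). The median log2 fold change at 100 nM was -0.13 over the members, the chosen Gpx2 included, and 0 over all tested genes. Among the 9 members other than Gpx2 the middle value was that of Gpx8, at -0.09.

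Upstream sequence was examined because Gpx2 and Nqo1 were both lower at each higher dose up to 10 nM. The RefSeq table of promoters (GRCm38.p6) held 8 of the 10 members, all but Gsr and Gclc. The 250 bases before the start of each were searched on both strands for the core of the antioxidant response element (TGACNNNGC), the AP-1 site (TGANTCA) and the TATA box (TATAAA), which occur in 10.2%, 6.75% and 12.4% of all 32851 windows. The element core was found in 1 member, Gclm, as GCACCGTCA from 134 to 126 bases before the start. The TATA box was found in Nqo1, 29 to 24 bases before the start, and no AP-1 site was found. Neither the Gpx2 nor the Nqo1 window held the element core, which says only that these letters are not in these windows. The 250 bases before each start are printed with the match in capitals.
Gpx2, chr12:76795555-76795804, minus strand: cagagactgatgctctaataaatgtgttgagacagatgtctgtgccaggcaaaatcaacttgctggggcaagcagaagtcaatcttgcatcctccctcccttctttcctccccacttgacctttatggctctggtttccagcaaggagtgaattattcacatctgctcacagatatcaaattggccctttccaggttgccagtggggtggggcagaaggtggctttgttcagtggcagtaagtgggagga
Nqo1, chr8:107403206-107403455, minus strand: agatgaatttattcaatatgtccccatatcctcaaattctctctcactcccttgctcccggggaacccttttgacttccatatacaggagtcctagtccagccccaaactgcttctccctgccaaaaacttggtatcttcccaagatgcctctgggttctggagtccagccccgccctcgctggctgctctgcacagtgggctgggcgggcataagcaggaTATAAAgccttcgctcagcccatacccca

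Of the genes that control NRF2, none of 12 was called at 100 nM, beside 6.83% of all tested genes lower and 4.37% higher, so that few calls would be found in 12 genes at those shares. Nfe2l2, the gene of NRF2 itself, measured 32.6 ± 1.048 RPKM untreated and 29.4 ± 0.877 RPKM under 100 nM, a log2 difference of -0.15 (standard error 0.11, adjusted p = 0.35). Keap1, which targets NRF2 for degradation, stood at 6.003 ± 0.829 and 5.57 ± 0.184 RPKM, with a log2 fold change of -0.11 (adjusted p = 0.627). Bach1, the repressor, fell from 5.64 ± 0.269 to 3.93 ± 0.115 RPKM at 100 nM, by 0.52 on the log2 scale (standard error 0.13, adjusted p = 0.00331). This was under the 1.5-fold minimum except with no filter on low values or with TMM factors over all genes with a count. Bach1 was lowest at 3 nM with 2.93 ± 0.276 RPKM. Its fitted log2 differences from 0 nM were -0.94 at 3 nM and -0.78 at 10 nM, both past that minimum. Those of Bach2, named after its values were seen, were 0.75 and 0.64, and 0.24 at 100 nM. The values at 3 and 10 nM are given without a test. RNA levels do not give the amount or activity of the NRF2 protein.

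Among 26 other targets of the NRF2 type, 21 were tested and 7 were called lower at 100 nM and none higher, beside 6.83% and 4.37% of all tested genes, with a median log2 fold change of -0.28 beside 0 over all genes. The 4 largest falls were those of Gstm1, a glutathione S-transferase, from 7.43 and 6.41 to 3.07 and 1.89 RPKM (log2 fold change -1.47, adjusted p = 0.00189), Blvrb, biliverdin reductase B, from 15.1 and 17.3 to 7.47 and 4.91 RPKM (-1.39, adjusted p = 0.00026), Ephx1, microsomal epoxide hydrolase (-1.17, adjusted p = 0.0122), and Pgd, an NADPH-forming enzyme of the pentose phosphate pathway (-0.80, adjusted p = 1.59e-07). The other 3 called, the ferritin genes Ftl1 and Fth1 and the malic enzyme gene Me1, fell outside the naming rule and were named after their values were seen. Gstm1 and Ephx1 were not called without 100 nM replicate 2, nor Ephx1 without 0 nM replicate 2. Hmox1, heme oxygenase, and Txnrd1, thioredoxin reductase, were also named after their values were seen. At 100 nM their log2 fold changes were -0.07 (adjusted p = 0.555) and -0.04 (adjusted p = 0.669). At 3 nM they were 0.35 and -0.20, given without a test. Calls in this list at other doses are not given here.

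In glutathione handling, 18 of 22 genes were tested, 2 were called lower and 1 higher at 100 nM, counts near the shares of 6.83% and 4.37% over all genes. Gsto1, glutathione S-transferase omega, fell from 37.6 ± 0.607 to 16.5 ± 1.65 RPKM (-1.18 on the log2 scale, standard error 0.13, adjusted p = 1.48e-07), and Ggt1, gamma-glutamyltransferase, from 2.50 ± 0.0423 to 1.36 ± 0.168 RPKM (-0.87, standard error 0.32, adjusted p = 0.0493), a call absent under 21 of 25 alternatives, all fits that left out 1 library and DESeq2 among them. Gss, glutathione synthetase, the enzyme after glutamate-cysteine ligase, rose from 9.35 ± 0.969 to 16.6 ± 0.565 RPKM (0.83, standard error 0.13, adjusted p = 2.44e-05). Of 13 tested genes of thioredoxins, peroxiredoxins, superoxide dismutases and catalase, the peroxidases Prdx6 (-0.81, adjusted p = 6.96e-07) and Cat (-0.74, adjusted p = 4.06e-07) fell, both of which also reduce hydrogen peroxide, and Txnrd3 rose (0.74, adjusted p = 0.017), a call lost by DESeq2 and without either 0 nM library or 100 nM replicate 2. None of the 10 genes of selenoprotein synthesis, on which Gpx1 to Gpx4 depend, was called, and 1 of them was higher without the fold minimum, beside 10.1% of all genes. Over all 5 lists, 11 of 74 tested genes were called lower and 2 higher, beside 6.83% and 4.37% of all genes.

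**Figure D4:**
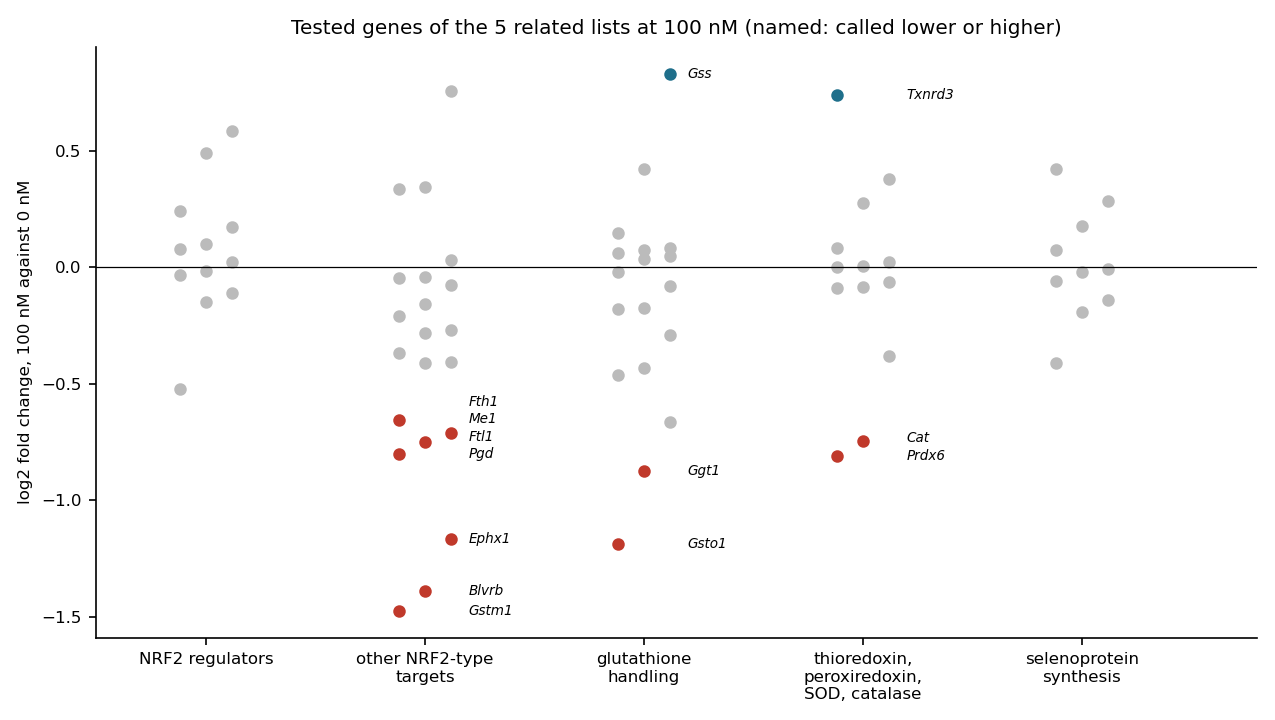
Log2 fold change at 100 nM against 0 nM of every tested gene in the 5 related lists (1 point a gene), with genes called lower in red, called higher in blue and the rest in gray. The 7 called targets of the NRF2 type lie between -0.66 and -1.47, while no NRF2 regulator and no gene of selenoprotein synthesis is called.

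The genes whose profile was most like that of Gpx2 over the 12 libraries, by Pearson's r of log2(RPKM + 0.1), were Rap1gap2 (0.982), Nos1 (0.980), Cmtm7 (0.979), Hist1h4d (0.975) and Map4k4 (0.974). At 100 nM they kept between 31.5% (Cmtm7) and 78.7% (Hist1h4d) of their 0 nM means, and Nos1, neuronal nitric oxide synthase, kept 38.1%. Of the members, Nqo1 ranked 84th (0.925) and Gpx7 411th (0.858) among the tested genes, and Gpx4 had the lowest value (-0.641). The libraries share their dose series, so r is given as a description. Nos1, Rap1gap2 and Cmtm7 were shared with the 5 highest under a pseudocount of 1, where Prdx6 and Cat were the others. Prdx6 was also among the 5 highest by rank correlation.

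Markers of other cell types were examined because Gpx2 is a gene of gut epithelium. The 9 intestinal epithelium markers summed to 62.99 and 63.7 RPKM at 0 nM and to 24.3 and 25.8 RPKM at 100 nM, so that their sum moved with Gpx2. Most of this sum was Cdx1, which fell from 31.8 to 9.41 RPKM (log2 fold change -1.76, adjusted p = 4.17e-11), and Epcam, which fell from 28.7 to 12.5 RPKM (-1.20, adjusted p = 1.88e-08), both also expressed in embryonic stem cells. The other markers of that list, Vil1, Hnf4a, Lgr5, Olfm4, Muc2, Lyz1 and Cldn7, had at most 18 counts in any library. Of these only Cldn7 had a lower mean at 100 nM than at 0 nM, and the rest had higher means, near the floor. The summed markers of embryonic stem cells lay between 2134 and 2380 RPKM in every library, while single markers moved both ways. At 100 nM Nanog (0.52), Tdgf1 (0.52) and Klf4 (0.28) were higher on the log2 scale with adjusted p under 0.05 by edgeR. Dppa5a (-0.48), Fgf4 (-0.52), Pou5f1 (-0.17) and Esrrb (-0.17) were lower, also with adjusted p under 0.05. All of these were under the 1.5-fold minimum. The summed trophectoderm markers lay between 28.4 and 33.2 RPKM. In that list at 100 nM, Krt8 fell by 2.02 on the log2 scale (adjusted p = 7.24e-07 by edgeR). Cdx2 rose by 3.10 (adjusted p = 2.4e-06), Tfap2c by 0.69 (adjusted p = 0.0109) and Eomes by 0.33 (adjusted p = 0.0465). Gata3 (-1.23, adjusted p = 0.0919) and Krt18 (-0.25, adjusted p = 0.605) missed the threshold, and Elf5, Hand1, Krt7 and Ascl2 were not tested. The sums for extraembryonic endoderm lay between 4.28 and 7.10 RPKM and those for fibroblasts between 1.97 and 5.56. Lama1, the only endoderm marker tested, fell from 4.46 to 2.13 RPKM at 100 nM, by 1.06 on the log2 scale (adjusted p = 1.59e-06). The other endoderm markers had at most 28 counts in any library. Of these only Sox7 had a lower mean at 100 nM (0.797 to 0.351 RPKM), and the rest had higher means. The part of cell makeup in the levels of Gpx2 was not tested.

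Reads were counted without regard to strand, which touches members with genes on the opposite strand. GENCODE places Gpx2 within the span of Fntb, on the other strand, although the annotation of the count table starts Fntb at position 76837467, beyond Gpx2. Fntb, a farnesyltransferase subunit gene, went the other way, from 18.1 ± 0.235 to 25.9 ± 1.63 RPKM at 100 nM (0.52 on the log2 scale, standard error 0.10, adjusted p = 0.000394, under the 1.5-fold minimum). Cdc20b, within which Gpx8 lies on the opposite strand, had 0 to 7 counts per library. Gpx2-ps1, a pseudogene of Gpx2 on another chromosome, had 0 to 3 counts per library, and reads that map to several places were not counted.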

How the data were processed

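RNA was extracted with Trizol, and libraries were made with the SMART-Seq Stranded Kit and sequenced as paired-end reads on an Illumina NextSeq. The authors trimmed reads with Trim Galore, aligned them to mm10 with HISAT2 and counted fragments per gene over exons with featureCounts, without a strand setting, per the file headers. The deposited values are raw counts per gene for 12 libraries, beside exon lengths. Here edgeR 4.0.16 in R 4.3.3 was used. Genes with a mean RPKM of at least 1 were kept, library sizes were reset to these genes, TMM factors were re-estimated and the quasi-likelihood test was run on all 6 conditions together, with Benjamini-Hochberg adjustment over 11378 genes. Genes were called at an adjusted p under 0.05 with more than a 1.5-fold difference. RPKM used the same library sizes. The test was checked on simulated data. The authors' own test, the likelihood ratio test, was an alternative, as were DESeq2 1.42.0, other scalings and filters, and leaving out each library. Replicate libraries are described as independent experiments. The labels do not say whether replicate numbers mark a shared experiment, so p-values measure the spread between these libraries. Named genes were all 10 members, Nfe2l2, Keap1 and Bach1, up to 4 called genes in each direction per list, the 5 genes most like Gpx2 and its 2 neighbours on each side in fold order. The members, the gene lists, the rule and the tests were chosen with earlier results of these data known. Columns of the table other than these counts and the exon length were not used. A listed marker gene is not reported here and was left out of the sums.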

Additional observations from a re-analysis of the deposited data

How the results depend on the processing

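Nqo1 from 1 nM on, Gpx2 from 0.3 to 3 nM and Gpx4 at 100 nM kept their direction and side of the threshold under each alternative that gave a value. By DESeq2 1 member was called at 1 nM, Nqo1, since Gpx2 had no adjusted p there. At 10 nM 2 members in place of 3 were called by DESeq2, without normalization factors and without any of the 0 or 10 nM libraries, and at 3 nM 3 in place of 2 under 5 alternatives, Gpx7 being the difference. From 1 to 10 nM, 1 member was called in a fit of the 4 libraries compared, where Gpx2 was at -2.40 (adjusted p = 0.0561), and between 1 and 2 when a library was left out, with Gpx2 from -3.84 to -1.71. Without the fold minimum 21 genes of the related lists were called. TMM factors over all genes with a count, chosen after seeing the data, gave 957 genes lower and 383 higher at 100 nM, against 777 and 497, and shifted the median of all genes by -0.08 on the log2 scale.

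Some small log2 differences that were not called changed sign. Without normalization factors Gsr was at 0.027 and Gclc at 0.0010 at 3 nM, and Gpx1 at 100 nM was at -0.076 both without the filter and with TMM factors over all genes with a count. With 1 library left out, the ranges at 0.3 nM were -0.63 to 0.16 for Gpx7, -0.66 to 0.34 for Gpx8, -0.028 to 0.0011 for Gsr, -0.028 to 0.083 for Gclm and -0.18 to 0.00012 for Gclc. At 1 nM they were -0.091 to 0.072 for Gpx4, -0.99 to 0.38 for Gpx8 and -0.019 to 0.032 for Gsr. At 3 nM they were -0.0053 to 0.11 for Gpx1, -0.11 to 0.42 for Gpx4, -1.99 to 0.35 for Gpx8, -0.097 to 0.049 for Gsr and -0.14 to 0.051 for Gclc. At 10 nM Gpx8 ranged from -0.68 to 0.66. At 100 nM Gpx1 ranged from -0.027 to 0.036 and Gpx8 from -0.19 to 0.013, and from 0.3 to 3 nM Gpx4 ranged from -0.0093 to 0.52. The cause was not tested. Low counts limit Gpx2 from 3 nM on, Gpx3 and Gpx8.

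With the replicate number as a block (replicate block), 3 members were called at 100 nM, as without it, and no call of a member changed, while 12 genes of the related lists were called in place of 13. No pairing of libraries by number was seen, as the correlation of their deviations over 15 pairs of conditions lay between -0.0948 and 0.0927. Whether the numbers mark a shared experiment is not known from the labels.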
